A study of Homo sapiens with 6 samples.

Results

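The core regulators of the integrated stress response were lower in T24 bladder cancer cells given oxidized low-density lipoprotein (ox-LDL) than in cells given vehicle. The group was defined by gene symbol as 10 genes of the ATF4 circuit and its feedback: ATF4, ATF5, ATF3, DDIT3, CEBPB, TRIB3, CHAC1, SESN2, DDIT4 and PPP1R15A. Of these, 9 had a probe set carrying their symbol, with 1 probe set each, out of 21448 probe sets tested, and ATF5 had none and is not analysed here. All 9 passed the test and all 9 were lower with ox-LDL, whereas 3.29% of all probe sets passed as lower. The falls ran from 1.42-fold for ATF4 to 3.97-fold for DDIT3. The calls of ATF4 and ATF3 did not hold in every fit that left out 1 array.

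The integrated stress response is the shared pathway through which cells answer amino acid shortage, unfolded protein in the endoplasmic reticulum (ER), viral RNA and mitochondrial or haem stress. Kinases phosphorylate the translation factor eIF2, which slows protein synthesis in general while the ATF4 transcript is translated more. ATF4 protein then turns on genes for amino acid supply, for further transcription factors such as CHOP (the product of DDIT3), and for feedback that ends the response. Because ATF4 is controlled to a large part at translation, transcript levels give no direct measure of eIF2 phosphorylation or of ATF4 protein, and neither was measured here.

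T24 is an established human cell line from a bladder carcinoma. After 12 h in medium without serum, cells received ox-LDL at 20 µg/mL (3 samples) or vehicle (3 samples) for a further 24 h, and RNA of each sample was hybridised to 1 array. The serum withdrawal was thus common to both groups, as was the 10% serum also listed for every sample. Cells without the serum withdrawal were not analysed here. Whether replicate samples came from separate cultures is not stated in the labels, and the p-values cover the spread among these samples alone, which may be technical. A free-text label names control siRNA for the vehicle samples and siRNA against G9a for the ox-LDL samples, against the titles, source and treatment fields, which were followed. EHMT2, the gene that encodes G9a, averaged 8.22 ± 0.14 on the log2 scale with ox-LDL and 7.85 ± 0.19 with vehicle (SD, n = 3 each; limma adjusted p = 0.125).

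Values are log2 expression after robust multi-array averaging, and the number of arrays limits their precision. Array medians ran from 7.11 to 7.18. Vehicle replicate 3 differed from the rest, with correlations across probe sets of 0.979 to 0.988 with the other arrays, against 0.992 to 0.997 among the other 5. Background control probe sets of high GC content averaged 7.82 on vehicle replicate 3, against 7.27 to 7.37 on the other 5. Of the markers of epithelial cells, KRT7, KRT8 and KRT18 averaged 12.25, 12.20 and 11.91 with ox-LDL and 11.97, 12.10 and 11.89 with vehicle, while E-cadherin (CDH1) and the uroplakins UPK3A and UPK1B did not exceed 5.21 in either group, the level under which 95% of negative control values fell. The leukocyte marker PTPRC and the fibroblast marker LUM lay there too. Others lay above that level, such as the leukocyte marker CD68 (7.94 with ox-LDL and 8.07 with vehicle) and the uroplakin UPK2 (6.41 and 6.61). CD3E, UPK1A and all measured endothelial markers also averaged above it in both groups. So did the fibroblast markers COL1A1 (7.39 with ox-LDL and 7.71 with vehicle) and DCN (5.28 and 5.60). None of 21 measured markers of epithelial, urothelial, leukocyte, endothelial and fibroblast cells passed in limma (3 at an unadjusted p under 0.05, and 0 with an ordinary t statistic). In RNA from whole cultures, fewer cells expressing a gene and less RNA per cell cannot be told apart.

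Differences are ox-LDL minus vehicle on the log2 scale, tested with limma over all probe sets, and a gene passed at a Benjamini-Hochberg adjusted p under 0.05. Over the whole array 6.77% of probe sets passed, and 3.29% of all probe sets passed as lower and 3.48% as higher, against 9 of 9 regulators lower. The median difference was -1.15 over the 9 regulators and -0.03 over all probe sets. In each of the 9 genes the 3 ox-LDL arrays lay below the 3 vehicle arrays, as they did in 17.7% of all probe sets. The gap between the highest ox-LDL array and the lowest vehicle array ran from 0.24 for ATF3 to 1.83 for DDIT3. Every regulator was above the negative control level on every array, the lowest value being 6.41. Since the 9 genes were chosen with earlier results of these arrays known, these counts describe the genes and are not independent evidence of a direction.

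**Figure D1:**
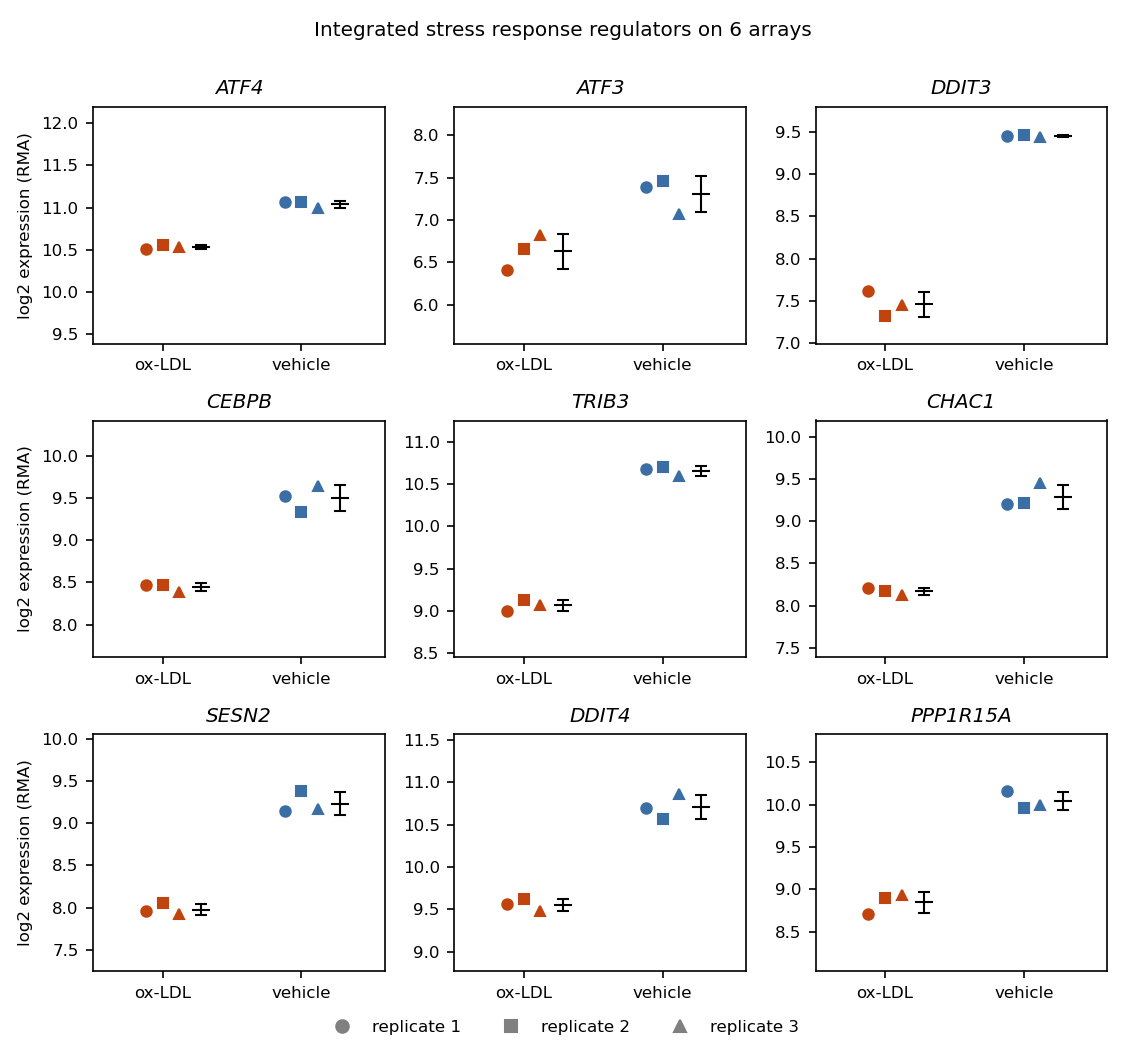
Log2 expression of the 9 regulators on each array, ox-LDL on the left and vehicle on the right of each panel, with marker shape for the replicate and a bar for the mean ± SD (n = 3). All panels span the same log2 range, and in every panel the 3 ox-LDL arrays lie below the 3 vehicle arrays, with the smallest gap for ATF3 (0.24) and the largest for DDIT3 (1.83).

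ATF4, the transcription factor at the centre of the pathway, had log2 values of 10.51, 10.56 and 10.54 on the ox-LDL arrays and 11.06, 11.06 and 10.99 on the vehicle arrays. The arrays within each group were close together, and the groups did not overlap. The difference of -0.50 (SE 0.07, 95% confidence interval -0.66 to -0.34, adjusted p = 0.00936) was the smallest of the 9, and it was the 552nd largest fall on the array. The call was lost without any 1 of the ox-LDL arrays (differences of -0.49, -0.51 and -0.50, adjusted p = 0.0647, 0.0612 and 0.0631), while it held without any 1 vehicle array (adjusted p = 0.00525 to 0.0418).

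ATF3, a stress-induced relative of ATF4 that mostly represses transcription, had the largest standard error of the 9. It had log2 values of 6.41, 6.65 and 6.83 with ox-LDL and 7.39, 7.46 and 7.07 with vehicle. Vehicle replicate 3 was the lowest of its group and ox-LDL replicate 3 the highest of its own, so the groups came within 0.24 of each other. The difference of -0.68 (SE 0.14, 95% confidence interval -1.02 to -0.33) passed narrowly (adjusted p = 0.0411). Of the 6 fits that each left out 1 array, it passed in 1, that without vehicle replicate 3 (difference -0.80, adjusted p = 0.0164); leaving out vehicle replicate 1 or 2 gave an adjusted p of 0.0946 and 0.105, and leaving out ox-LDL replicate 1, 2 or 3 gave 0.145, 0.146 and 0.0824. Its call also did not hold with equal array medians (adjusted p = 0.0525), a second quantile normalization (0.0594) or cyclic loess (0.0712), within a range of 0.00482 to 0.146 over all alternatives.

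DDIT3, which encodes the pro-apoptotic factor CHOP, showed the largest change. It had log2 values of 7.61, 7.32 and 7.45 with ox-LDL and 9.45, 9.46 and 9.44 with vehicle. The vehicle arrays agreed to within a few hundredths, and the groups were 1.83 apart. The gene was 3.97-fold lower (difference -1.99, SE 0.09, adjusted p = 0.00028), the 11th largest fall among all probe sets. CEBPB, a partner of ATF4 and CHOP in dimers and a factor of cytokine responses, had values of 8.47, 8.47 and 8.39 with ox-LDL and 9.52, 9.34 and 9.64 with vehicle, without overlap. It was 2.07-fold lower (difference -1.05, SE 0.09, adjusted p = 0.00239).

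Among the effectors, TRIB3, a pseudokinase that binds ATF4 and CHOP and restrains them, fell most. Its log2 values were 9.002, 9.13 and 9.07 with ox-LDL and 10.68, 10.70 and 10.59 with vehicle. This was a 3.01-fold fall (difference -1.59, SE 0.07, adjusted p = 0.00028) and the 22nd largest on the array. CHAC1, an enzyme that degrades glutathione, had values of 8.21, 8.17 and 8.13 with ox-LDL and 9.20, 9.21 and 9.45 with vehicle. Vehicle replicate 3 was the highest and the ox-LDL arrays were close together. The gene fell 2.17-fold (difference -1.12, SE 0.09, adjusted p = 0.00177).

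SESN2 and DDIT4 encode inhibitors of mTORC1, the kinase complex that drives growth when amino acids are plentiful: sestrin 2 acts through the GATOR complexes and DDIT4 (also called REDD1) through the TSC complex. SESN2 had log2 values of 7.96, 8.05 and 7.92 with ox-LDL and 9.14, 9.38 and 9.16 with vehicle. Its fall was 2.38-fold (difference -1.25, SE 0.09, adjusted p = 0.00126). DDIT4 had values of 9.56, 9.62 and 9.48 with ox-LDL and 10.69, 10.57 and 10.86 with vehicle. It fell 2.23-fold (difference -1.15, SE 0.10, adjusted p = 0.00194), and the gap between the groups was 1.09 for SESN2 and 0.95 for DDIT4.

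PPP1R15A, also called GADD34, is the stress-induced subunit that brings protein phosphatase 1 to eIF2 and so ends the response. It had log2 values of 8.71, 8.90 and 8.94 with ox-LDL and 10.16, 9.97 and 10.00 with vehicle. The groups were 1.03 apart, and the gene was 2.29-fold lower with ox-LDL (difference -1.19, SE 0.10, adjusted p = 0.00177).

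By size the 9 falls formed a graded series. DDIT3 (95% confidence interval -2.21 to -1.78) and TRIB3 (-1.77 to -1.41) came first, with intervals that met without overlapping. SESN2, PPP1R15A, DDIT4, CHAC1 and CEBPB followed between -1.25 and -1.05, with intervals that all overlapped each other. The interval of TRIB3 still overlapped those of SESN2 and PPP1R15A. The interval of ATF4 overlapped that of ATF3 alone, and the wider interval of ATF3 reached -1.02 and overlapped those of CEBPB, CHAC1, DDIT4 and PPP1R15A. Differences between regulators were not tested. The selection stated in the study's design text (p no higher than 0.001, fold change no smaller than 1.5), applied here to the unadjusted limma p, took 7 of the 9 as lower (1.31% of all probe sets) and left out ATF4, for its size, and ATF3, for its p of 0.00234. The same 7 genes passed in every one of the 16 alternatives tried. These include that selection itself, which gives no adjusted p, and in the others the adjusted p was at most 0.0240.

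**Figure D2:**
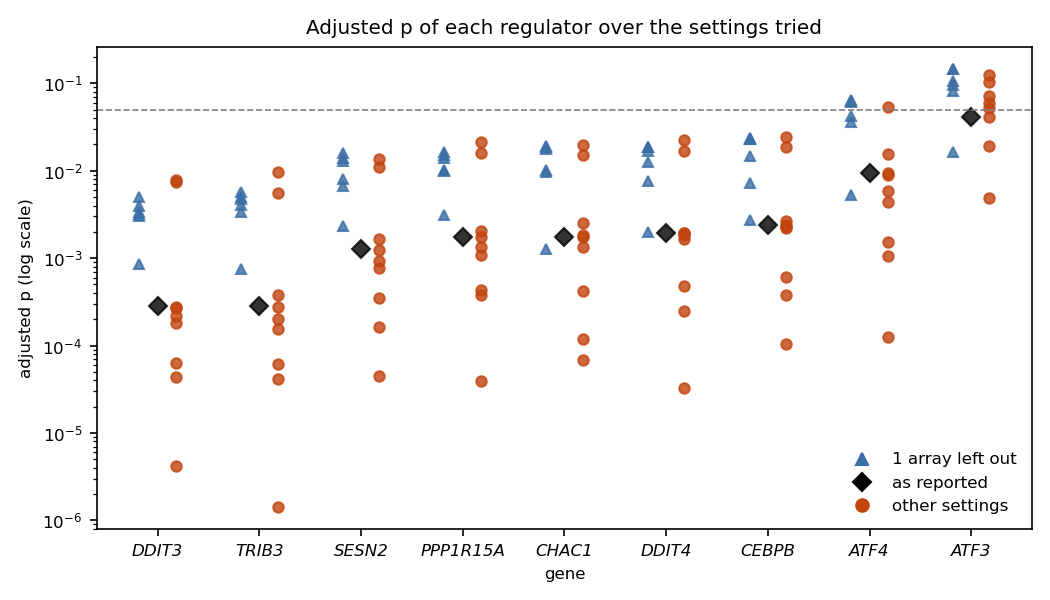
Benjamini-Hochberg adjusted p of each regulator (log axis) as reported (diamonds), with 1 array left out (triangles) and under the other settings (circles), ordered by p, with a dashed line at 0.05. Triangles and circles of 7 genes stay below the line, whereas some of ATF4 (up to 0.0647) and most of ATF3 (up to 0.146) lie above it.

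Vehicle replicate 3, which differed from the rest over the whole array, had no common direction in these genes: it was the lowest vehicle array for 4 of them, the highest for 3 and in the middle for 2. Without it all 9 were lower and passed, with differences of -2.00 to -0.53. Passing was also more frequent over the whole array in that fit. Of 21448 probe sets, 1220 passed as lower and 1450 as higher, against 705 and 746 with no array left out. Averaged over the 9 genes, the ox-LDL arrays stood at 8.49, 8.54 and 8.53 and vehicle replicate 3 at 9.69, beside 9.70 and 9.68 for vehicle replicates 1 and 2.

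The promoters of the 9 genes were read for elements linked to the ATF, CREB and C/EBP families or to ER stress. This describes the sequences and not binding. RefSeq (GRCh38.p14) gave 15 windows from 250 bases before to 50 bases after a gene start for the 9 genes, out of 35116 such windows in all. The C/EBP-ATF composite element, searched as TGATGNAA on both strands, was in 2 of the 15 (ATF3 and CHAC1) and in 3.62% of all windows. The palindromic cyclic AMP response element TGACGTCA was in 1 (PPP1R15A) and in 1.85% of all. The ER stress response element, CCAAT and CCACG with 9 bases between them, was in 0 of the 15 windows and in 0.0769% of all. Windows of 3 genes are shown, for the largest fall and for the proximal matches of an effector and of the feedback gene, 5′ to 3′ on the gene's strand with a match in capitals. That of DDIT3 (chr12:57520465-57520764, minus strand) holds no match, that of CHAC1 (chr15:40953221-40953520, plus strand) holds the composite element on the opposite strand from 209 bases before the start, and that of PPP1R15A (chr19:48872171-48872470, plus strand) the cyclic AMP response element from 58 bases before it.
DDIT3: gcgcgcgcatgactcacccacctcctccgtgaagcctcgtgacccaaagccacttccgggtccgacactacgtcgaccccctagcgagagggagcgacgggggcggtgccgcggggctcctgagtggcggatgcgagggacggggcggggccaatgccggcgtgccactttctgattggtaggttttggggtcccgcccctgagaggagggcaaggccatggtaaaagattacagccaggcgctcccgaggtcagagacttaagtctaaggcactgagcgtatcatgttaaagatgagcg
CHAC1: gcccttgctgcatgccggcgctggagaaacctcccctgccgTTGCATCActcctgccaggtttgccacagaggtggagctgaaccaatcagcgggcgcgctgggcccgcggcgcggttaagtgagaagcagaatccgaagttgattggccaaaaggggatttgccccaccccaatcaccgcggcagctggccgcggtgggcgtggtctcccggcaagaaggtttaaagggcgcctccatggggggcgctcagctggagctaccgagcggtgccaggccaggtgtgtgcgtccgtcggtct
PPP1R15A: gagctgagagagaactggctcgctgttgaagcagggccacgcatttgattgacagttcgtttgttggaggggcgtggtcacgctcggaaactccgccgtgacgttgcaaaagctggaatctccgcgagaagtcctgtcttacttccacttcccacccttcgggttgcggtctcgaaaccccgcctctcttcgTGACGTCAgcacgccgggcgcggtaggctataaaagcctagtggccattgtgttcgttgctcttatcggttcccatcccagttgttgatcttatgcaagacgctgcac
The match of ATF3, TGATGGAA, lay 191 bases before the upstream of its 2 annotated starts. All 9 regulators fell, among them DDIT3, CHAC1 and PPP1R15A by 1.99, 1.12 and 1.19 on the log2 scale. Whether the elements bear on the falls was not tested. The absence of a match says only that these letters are not in the window. The DDIT3 window holds CCAAT and CCACT with 9 bases between them, which differs from the searched ER stress element in the last base. Near matches were not searched for.

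Close relatives of the regulators did not all follow them. Of the 7 paralogs of TRIB3, CHAC1, SESN2, DDIT4 and PPP1R15A measured, 2 rose and 5 did not pass. CHAC2, the glutathione-degrading relative of CHAC1, averaged 7.74 ± 0.03 with ox-LDL and 7.26 ± 0.14 with vehicle (SD, n = 3 each; difference 0.48, adjusted p = 0.0267). DDIT4L, the paralog of DDIT4, averaged 6.90 ± 0.02 with ox-LDL and 6.41 ± 0.18 with vehicle (difference 0.49, adjusted p = 0.0378). Neither gene passed once any ox-LDL array was dropped (adjusted p of 0.106 to 0.128 for CHAC2 and 0.138 to 0.154 for DDIT4L). Nor did either pass once vehicle replicate 2 was dropped (0.0647 and 0.0570), and DDIT4L did not once vehicle replicate 1 was dropped (0.0558).

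PPP1R15B, the constitutive counterpart of PPP1R15A, averaged 9.55 with ox-LDL and 9.72 with vehicle (difference -0.16, 95% confidence interval -0.36 to 0.04, adjusted p = 0.260; -0.23 and 0.0704 without vehicle replicate 3). SESN1, a p53-responsive sestrin, had a difference of 0.36 (adjusted p = 0.0934) and passed without vehicle replicate 2 (0.47, adjusted p = 0.0438). TRIB1 had a difference of -0.29 (adjusted p = 0.0632) and passed without vehicle replicate 3 (-0.31, adjusted p = 0.0386). TRIB2 (3.84 with ox-LDL and 3.65 with vehicle) and SESN3 (3.60 with ox-LDL and 3.52 with vehicle) lay at or below the negative control level in both groups. The difference in response between a regulator and its paralog was not tested, but the 95% confidence intervals of TRIB3, SESN2, DDIT4, CHAC1 and PPP1R15A did not overlap those of any of their paralogs.

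**Figure D3:**
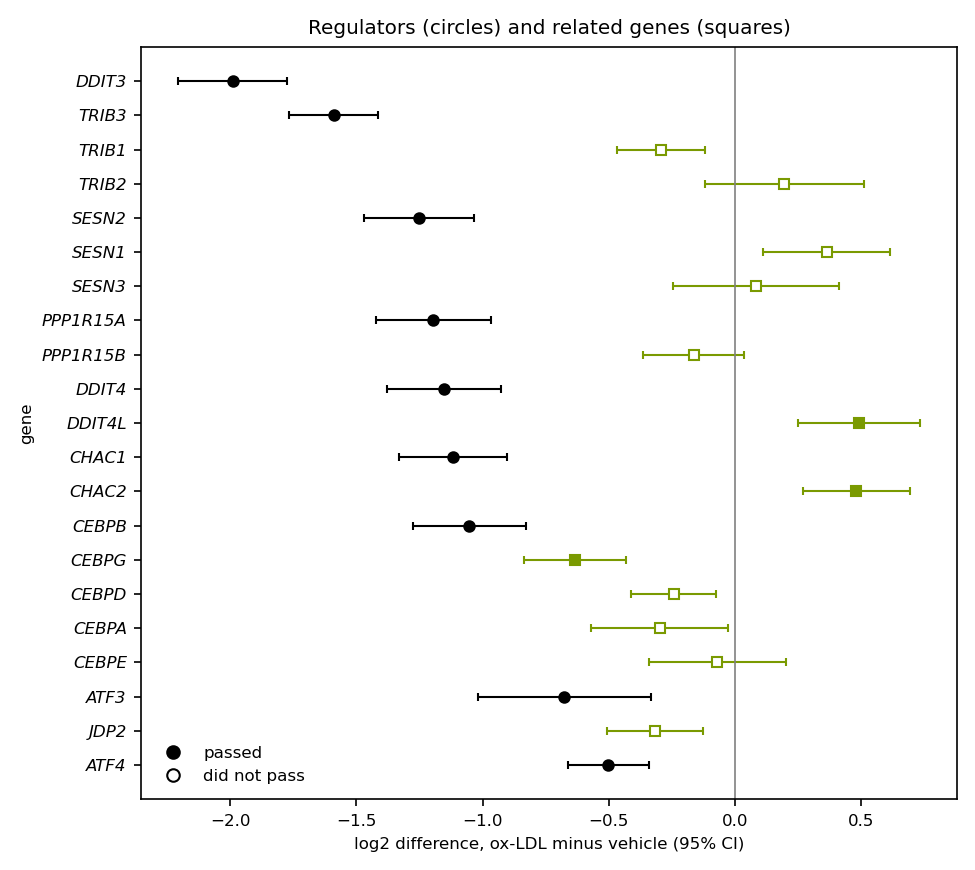
Log2 difference of ox-LDL minus vehicle with its 95% confidence interval (limma) for the 9 regulators (black circles) and related genes (green squares), filled where the adjusted p was under 0.05. The regulators lie between -1.99 and -0.50, while CHAC2 and DDIT4L lie at 0.48 and 0.49.

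The machinery upstream of ATF4 was mixed. Of 18 measured genes for eIF2 kinases, eIF2, its exchange factor eIF2B and their modulators, 2 fell, 1 rose and 15 did not pass, with a median difference of 0.13. EIF2AK3, which encodes PERK, the eIF2 kinase of the ER, fell by 0.66 on the log2 scale (8.10 ± 0.02 with ox-LDL and 8.75 ± 0.04 with vehicle, SD, n = 3 each; adjusted p = 0.00359) and passed in each fit without 1 array. EIF2AK4, which encodes GCN2, the kinase that senses uncharged tRNA, rose by 0.45 (adjusted p = 0.0398), and DNAJC3, an ER co-chaperone first described as a kinase inhibitor, fell by 0.41 (adjusted p = 0.0441). Both of these calls held in 1 of the 6 fits without 1 array, that without vehicle replicate 3 (adjusted p = 0.0161 and 0.0116); in the other 5 the adjusted p was 0.0527 to 0.157 for EIF2AK4 and 0.0817 to 0.164 for DNAJC3. EIF2B3, a subunit of eIF2B, had a difference of 0.27 (adjusted p = 0.0971).

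Of 16 other basic leucine zipper (bZIP) factors and regulators of the ATF, CREB, C/EBP and related families, 5 fell and 11 did not pass (median -0.28). CREBRF, a regulator of CREB3, fell by 1.04 (adjusted p = 0.00386). XBP1, the factor spliced by IRE1 in ER stress, fell by 0.54 (adjusted p = 0.00737). CEBPG, a dimer partner of ATF4, fell by 0.63 (adjusted p = 0.00927), and NFE2L2, which encodes the antioxidant factor NRF2, by 0.41 (adjusted p = 0.0161). CREBRF passed in each fit without 1 array. XBP1 lost its call without ox-LDL replicates 2 and 3 (adjusted p = 0.0521 and 0.0551), CEBPG without any ox-LDL array (0.0565 to 0.0602), and NFE2L2 without any array other than vehicle replicate 3 (0.0511 to 0.0946). The count that fell was 7 without vehicle replicate 3 and 3 when vehicle replicate 1 or 2 was dropped, and when ox-LDL replicate 1, 2 or 3 was left out it was 2, 1 and 1.

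Downstream, 8 of 18 genes of amino acid synthesis and transport that ATF4 is known to activate fell and 10 did not pass (median -0.34). CTH, which makes cysteine from cystathionine, fell by 1.55 (5.95 ± 0.14 with ox-LDL and 7.51 ± 0.13 with vehicle, SD, n = 3 each; adjusted p = 0.00103). The glycine transporter SLC6A9 fell by 1.19 (adjusted p = 0.000489), the cystine transporter SLC7A11 by 0.95 (adjusted p = 0.00219) and the mitochondrial folate enzyme MTHFD2 by 0.68 (adjusted p = 0.00347), and these 4 calls held in each fit without 1 array. The count was 12 lower and 2 higher without vehicle replicate 3, 8 and 7 lower when vehicle replicate 1 or 2 was left out, and when ox-LDL replicate 1, 2 or 3 was left out 4, 4 and 5 were lower.

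Of 11 aminoacyl-tRNA synthetases, 5 fell and 6 did not pass (median -0.28), led by the tryptophan enzyme WARS1 (difference -0.80, adjusted p = 0.00451), the alanine enzyme AARS1 (-0.59, adjusted p = 0.00639), the cysteine enzyme CARS1 (-0.52, adjusted p = 0.00935) and the glycine enzyme GARS1 (-0.52, adjusted p = 0.0119). WARS1 passed in each fit without 1 array, AARS1 did not without ox-LDL replicate 2 (adjusted p = 0.0520), and CARS1 and GARS1 did not without any 1 ox-LDL array (0.0573 to 0.0630 and 0.0672 to 0.0777). The count was 8 without vehicle replicate 3 and 4 when vehicle replicate 1 or 2 was dropped, and when ox-LDL replicate 1, 2 or 3 was left out it was 2, 1 and 2.

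Of 13 other stress effectors of ATF4 and CHOP, 5 fell, 1 rose and 7 did not pass (median -0.35). KLHL24, which encodes a ubiquitin ligase adaptor, fell by 0.93 (adjusted p = 0.00833), VEGFA, the angiogenic growth factor, by 0.80 (adjusted p = 0.00226), and the death receptor TNFRSF10B, a target of CHOP, by 0.59 (adjusted p = 0.00661). KLHL24 and VEGFA passed in each fit without 1 array. BCL2L11, which encodes the pro-apoptotic protein BIM, went the other way and rose by 0.64 (7.66 ± 0.07 with ox-LDL and 7.02 ± 0.13 with vehicle, SD, n = 3 each; adjusted p = 0.0110). BCL2L11 did not pass once any ox-LDL array was dropped (adjusted p = 0.0530 to 0.0690). The call of TNFRSF10B was lost only without ox-LDL replicate 2 (adjusted p = 0.0521). The count that fell was 6 without vehicle replicate 3 and 3 when vehicle replicate 1 or 2 was dropped, and when ox-LDL replicate 1, 2 or 3 was left out it was 3, 2 and 3.

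Of 17 genes of the other arms of the ER stress response, linked to IRE1 and ATF6, which signal in parallel to PERK, 10 fell and 7 did not pass (median -0.46). The co-chaperone DNAJB9 fell by 2.10 (adjusted p = 0.000254), HERPUD1, a factor of ER-associated degradation, by 1.34 (adjusted p = 0.000417), ERN1, which encodes IRE1 itself, by 1.20 (adjusted p = 0.00231) and the ubiquitin ligase SYVN1 by 0.87 (adjusted p = 0.00226). These 4 calls held in each fit without 1 array. The count was 12 without vehicle replicate 3 and 8 when vehicle replicate 1 or 2 was dropped, and when ox-LDL replicate 1, 2 or 3 was left out it was 7, 6 and 6. The XBP1 and DNAJC3 calls are counted in this list and also above.

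The genes around mTORC1, on which sestrin 2 and DDIT4 act, were mostly not called: 2 of 20 fell, 18 did not pass, and the median difference was 0.04. FNIP1, a partner of folliculin in amino acid sensing, fell by 0.42 (adjusted p = 0.0228) and SEC13, a subunit shared by GATOR2 and vesicle coats, by 0.34 (adjusted p = 0.0367). DEPDC5, a GATOR1 subunit, had a difference of 0.54 (adjusted p = 0.0632) and SEH1L, of GATOR2, one of 0.26 (adjusted p = 0.0668). Without vehicle replicate 3, 5 fell and 3 rose, with DEPDC5 (adjusted p = 0.0205) and SEH1L (0.0372) among those that rose. FNIP1 lost its call when vehicle replicate 1 (0.0646) or any ox-LDL array was dropped (0.103 to 0.118), and SEC13 without any array other than vehicle replicate 3 (0.0623 to 0.160).

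Over all 116 other pathway genes measured, 35 fell, 4 rose and 77 did not pass, and their median difference was -0.20, beside -1.15 for the 9 regulators and -0.03 for all probe sets. With single arrays left out, 15 to 51 fell and 0 to 9 rose: 51 and 9 without vehicle replicate 3, and 18, 15 and 18 lower with 0 higher when ox-LDL replicate 1, 2 or 3 was dropped (limma; 13, 10 and 11 were higher at an unadjusted p under 0.05). With vehicle replicate 1 or 2 left out, 26 fell.

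**Figure D4:**
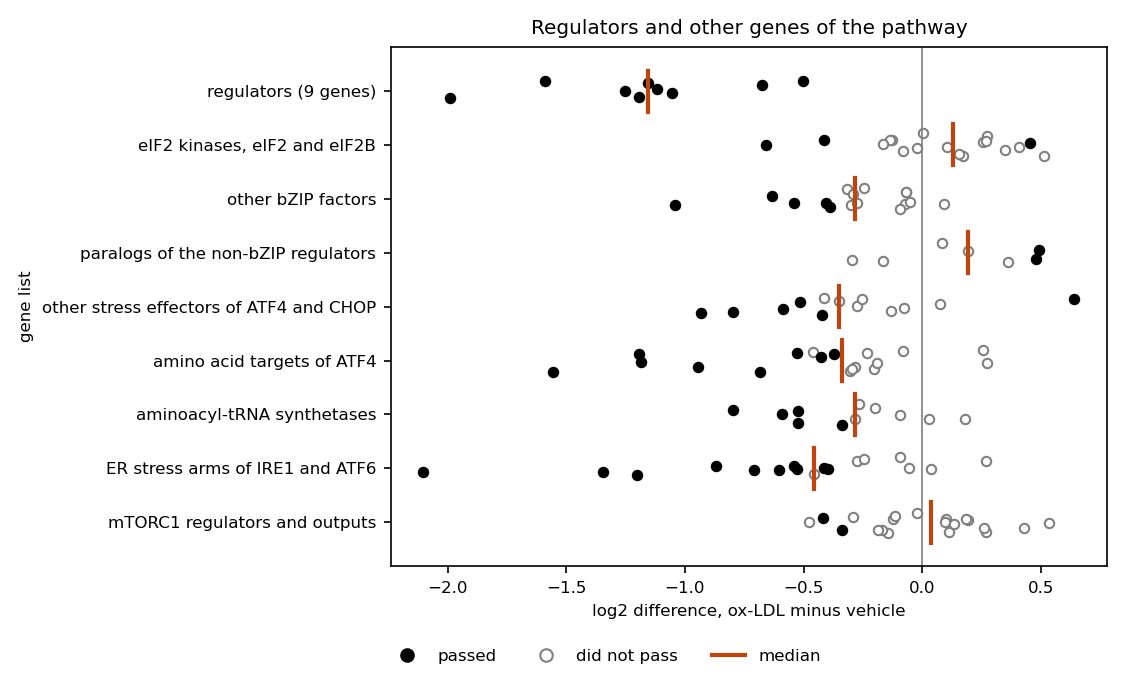
Log2 difference of ox-LDL minus vehicle for each gene of the regulators and of the pathway lists (rows, jittered vertically), black where the adjusted p was under 0.05, with an orange bar at the median. The regulators' median is -1.15, the list medians run from -0.46 for the IRE1 and ATF6 arms to 0.20 for the paralogs.

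The transcripts whose profile over the 6 arrays was most like the mean of the 9 regulators were SELENOS, UPP1, SLC6A9, TMEM39A and SQLE, with Pearson r of 0.9997, 0.9993, 0.9992, 0.9990 and 0.9989. The candidates were named probe sets outside the group with an SD over the arrays of at least 0.3, and with only 6 arrays in 2 groups such values describe little more than small spread within each group. SELENOS, a selenoprotein of ER-associated degradation, had log2 values of 9.10, 9.14 and 9.15 with ox-LDL and 9.99, 9.95 and 9.98 with vehicle. UPP1, a uridine phosphorylase, had values of 6.995, 7.01 and 6.95 with ox-LDL and 8.43, 8.40 and 8.43 with vehicle. SQLE, the squalene epoxidase of cholesterol synthesis, and TMEM39A, an ER membrane protein, had differences of -0.97 and -0.60.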

How the data were processed

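RNA of T24 cells was measured on 6 single-colour oligonucleotide arrays after labelling 500 ng of total RNA per sample. The values deposited by the authors are log2 expression after RMA, per the submitters' processing notes; no version, annotation or genome build is given in the sources used here. RMA as generally defined equalises probe values across arrays before it summarises them, although the medians of the deposited values still differ slightly, so a change of total RNA per cell is not visible, and differences of dim genes are understated.

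Of 24350 probe sets, 2902 control probe sets were left out. Of the 21448 tested, 17709 had 1 gene symbol in the platform annotation and 3739 had none. All 6 arrays entered one limma fit (lmFit and eBayes, limma 3.58.1, R 4.3.3) of ox-LDL minus vehicle, two-sided, with Benjamini-Hochberg adjustment over 21448 probe sets. Errors are SD over arrays or limma's SE, and intervals are 95% confidence intervals of the fit. Figures used matplotlib 3.10.9. The procedure was tested on simulated data.

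The regulators, gene lists and tests were chosen with earlier results of these arrays known. Named are all regulators, all listed paralogs, the 4 genes of each other list with the smallest p, EHMT2, and the 5 nearest profiles. Of 122 other pathway genes listed, 6 had no probe set matched by symbol or gene number and are not analysed here. Alternatives were other normalizations, filters, variance models and call rules, the replicate number as a block, and each array left out.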

Additional observations from a re-analysis of the deposited data

How the results depend on the processing

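The log2 differences of the 9 regulators kept their sign under all 16 alternatives (15 for ATF3), and the largest move was 1.19 times, for ATF3. Alternatives that change only the variance model, the call rule, the probe sets tested or the block leave the differences unchanged by construction. So does averaging a gene's probe sets, as each regulator had 1. The differences could move only with another normalization, with array weights or with 1 array left out. The count of regulators that fell was 9 as reported and 7 to 9 over the alternatives (7 to 9 with 1 array left out), and all losses were those of ATF3 and ATF4. ATF3, with a mean below the array's median level, drops out by construction when only brighter probe sets are tested. With an ordinary t statistic the adjusted p of ATF3 was 0.126. The counts over the array depended on single arrays: with 1 array left out, between 305 and 2670 probe sets passed, against 1451, between 15 and 51 other pathway genes were lower, against 35, and between 0 and 9 were higher, against 4. With only brighter probe sets 2608 passed and 9 other pathway genes were higher, and a robust fit with an intensity trend gave 2649 and 8. With array weights 3962 passed, with 54 other pathway genes lower and 11 higher, and with an ordinary t statistic 2 were higher. The study's selection took 496 probe sets, 19 other pathway genes lower and 1 higher. The cause of these shifts was not tested.

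With the replicate number as a block, 550 probe sets passed, 7 regulators fell (ATF4 adjusted p = 0.0531 and ATF3 adjusted p = 0.104), and 21 other pathway genes were lower and 0 higher in limma (15 higher at an unadjusted p under 0.05; without the block an ordinary t statistic gave 2). Same-numbered arrays did not deviate together (correlations of -0.01, 0.03 and 0.02 over probe sets), so the numbers were not taken as pairs.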
